A study of Mus musculus with 3 samples.

Results

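The genes described here are 40 genes of lysosomes and autophagy, out of 36609 genes on the array. They are 16 acid hydrolases, 2 lumenal helper proteins, 8 membrane proteins, 3 transcription factors of the MiT family and 11 autophagy factors, and they were chosen by name. Where a gene had several probes, the one called well above background by the scanner software on the largest number of arrays was used, and brightness settled ties.

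Lysosomes are acidic compartments in which hydrolases degrade proteins, lipids and glycans, and spleen macrophages, dendritic cells and lymphocytes use them to clear engulfed material and to prepare antigen. A proton pump, the V-ATPase, acidifies the compartment, and heavily glycosylated membrane proteins such as LAMP1 and LAMP2 line it. Autophagy delivers the cell's own cytoplasm to the lysosome in a double membrane that is built by a lipidation machinery around the LC3 and GABARAP proteins, and the transcription factors TFEB, TFE3 and MITF can raise many of these genes together through a promoter motif called CLEAR.

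Spleen cells from 6-month-old male MRL/MpJ mice, freed of red cells and kept in culture, were exposed for 3 h to PBS, to MRL/MpJ urine, or to urine of the MRL/MpJ-Faslpr/lpr strain, which has no functional Fas and develops lupus-like disease (lpr urine from here on). All responding cells carried intact Fas, so the strains differed in the urine donors only. Each urine was a pool from 6 male donors aged 6 months that had passed a 0.22 µm filter, so the spread between donors cannot be seen. There was 1 array per condition, the protocol speaks of a single spleen, and no difference below has a replicate check or a p-value.

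All 40 genes were well above background on all 3 arrays, and 0 were saturated on any. Before scaling, 38 of the 40 were dimmer with MRL/MpJ urine than with PBS and 37 with lpr urine, as were the arrays as a whole, whose 75th percentiles were 157.5 (PBS), 86.6 (MRL/MpJ urine) and 75.7 intensity units. A level is therefore the log2 signal minus the array's 75th percentile, and a difference is one level minus another on the log2 scale. The 8 spike-in RNAs added in fixed amounts differed by only 0.05 and -0.06 before scaling, so scaling to them would shift every difference from PBS by -0.90 with the MRL/MpJ urine and by -0.99 with the lpr urine. Every statement of higher or lower against PBS is thus relative to the 75th percentile, and positive values under these shifts turn negative on the spike-in scale. For the 40 genes the software's own error of a difference ran from 0.204 to 0.215, nearly all of it a preset share of the signal. Spots repeated within an array gave a smaller SD of a difference, 0.12, at log2 signals of 5 to 8 and 0.05 above that, but a larger one, 0.372, below a log2 signal of 5. Defining markers of spleen leukocytes were present, with 10 of 10 B cell, 11 of 12 T cell and 8 of 8 NK cell markers above background on every array. In such a mixture, fewer cells of a type and less RNA per cell cannot be told apart.

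**Figure D1:**
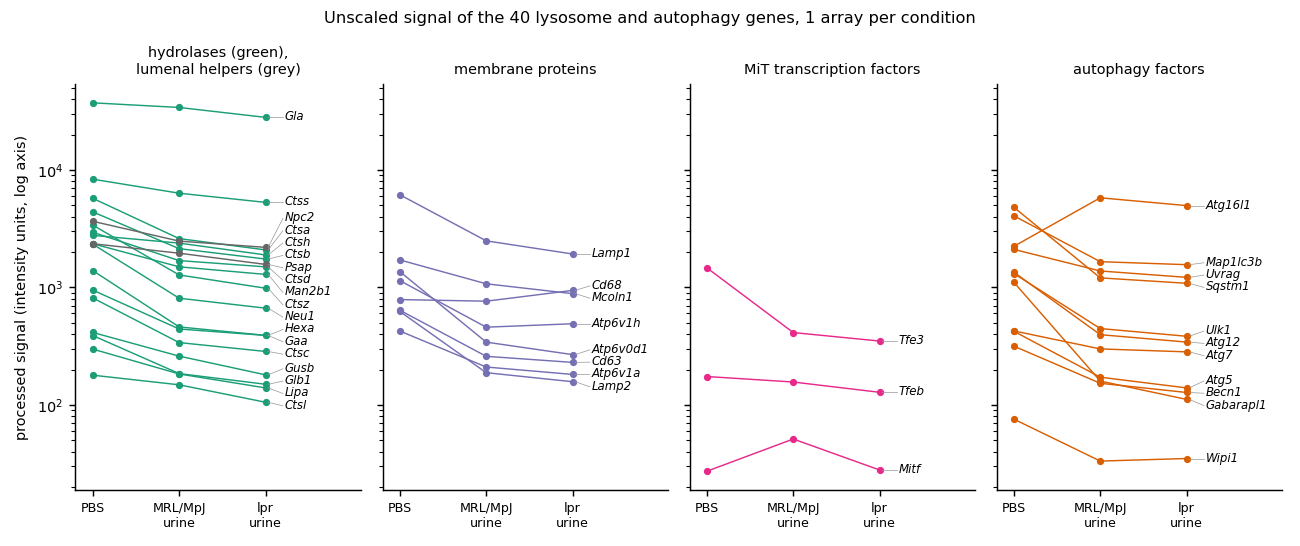
Processed signal of the 40 genes in intensity units on a log axis, with 1 point per array for PBS and each urine and a line joining the points of a gene; panels separate the roles. Most points are lower to the right, as were the urine arrays as a whole before scaling. Atg16l1 lies higher with MRL/MpJ urine (5791 against 2236) and Gabarapl1 has the steepest line downward (160 against 1105).

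Promoters are shown first because CLEAR is the feature this pathway is known to share. The core searched was TCACGTG on either strand, from 250 bases before to 50 after the start of each gene, in RefSeq sequences of build GRCm38.p6. Of the 40 genes, 34 were in that table, and 10 of those 34 (29.4%) held the core, against 4.29% of all 27025 genes there. A gene was counted if any of its windows held the core, and some genes had several windows. They were Ctsa, Ctsd, Gaa, Gla, Glb1, Lamp1, Mcoln1, Atp6v0d1, Atp6v1a and Atg7. The Lamp1 promoter held 4 copies within 100 bases before the start and the Mcoln1 promoter held 2, and both stretches are printed whole. Ctsa, Ctsd and Gla also held 2 copies each in the window, of which 1 is printed for Gla. Shorter stretches are given for Atp6v0d1, the gene with the core that differed most from PBS, for Gaa and Gla, the lowest and highest hydrolases with MRL/MpJ urine, and for Atg7. Capitals mark the core on either strand, and each stretch reads 5′ to 3′ along the strand of its gene.
Lamp1, chr8:13159061-13159160, plus strand: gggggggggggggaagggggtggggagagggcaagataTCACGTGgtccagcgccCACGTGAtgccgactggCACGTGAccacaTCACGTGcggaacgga
Mcoln1, chr8:3500419-3500518, plus strand: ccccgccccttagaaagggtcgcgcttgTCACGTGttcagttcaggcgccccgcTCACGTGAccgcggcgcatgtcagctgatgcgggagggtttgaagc
Atp6v0d1, chr8:105566051-105566078, minus strand: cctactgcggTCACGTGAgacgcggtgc
Gaa, chr11:119267812-119267838, plus strand: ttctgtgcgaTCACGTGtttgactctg
Gla, chrX:134601216-134601243, minus strand: aagcgattgaTCACGTGAgcatctacgt
Atg7, chr6:114670953-114670979, plus strand: atattggtggTCACGTGtgcagtaagt

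The genes with the core did not share a direction on these arrays. Their differences from PBS with MRL/MpJ urine ran from -1.13 to 0.73 with a median of -0.18 (n = 10 genes), beside a median of -0.28 over the 24 genes without the core in this window. With lpr urine the medians were -0.25 and -0.18. A single gene of the 10, Atp6v0d1, was past 2-fold in either comparison. Lamp1, with 4 copies, differed by -0.44 and -0.62, and Mcoln1, with 2 copies, by 0.19 and 0.10. The plain E-box CACGTG, which the core contains, was in the promoters of 12 of 34 genes (35.3%, against 8.09% of all genes). Motifs of other stress pathways were searched in the same windows. The antioxidant response element TGACNNNGC was in 7 (20.6%, against 14.0%), the hypoxia response element ACGTGC, which overlaps the E-box, in 4 (11.8%, against 6.68%), and the heat shock element GAANNTTC in Ctss alone (2.94%, against 9.04%). A match describes letters in a window and is not a binding site.

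Most of the 40 genes stayed within 2-fold of PBS with both urines. With MRL/MpJ urine, 2 of the 40 passed 2-fold on the higher side, where 16.9% of all 19639 measured genes were, and 3 were at least 2-fold lower, where 11.1% of all were. The 2 were Atg16l1 and Mitf, and the 3 were Gabarapl1, Sqstm1 and Atp6v0d1. The other 35 (87.5%) lay within 2-fold, as did 72.0% of all genes. The array's brighter genes are the nearer background, since 38 of the 40 had a mean level at or above the 75th percentile, and of 10467 such genes 12.6% were higher, 11.5% lower and 76.0% within 2-fold. The median difference of the 40 genes was -0.20, beside 0.13 over all measured genes and -0.04 over the brighter ones, and 23 of the 40 (57.5%) lay below 0, as did 44.7% of all genes and 51.4% of the brighter ones.

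With lpr urine, 3 of the 40 were at least 2-fold higher (18.5% of all 19368 measured genes) and 4 were at least 2-fold lower (12.0% of all). Cd68 joined Atg16l1 and Mitf on the higher side, and Tfe3 joined Gabarapl1, Atp6v0d1 and Sqstm1 on the lower side. Within 2-fold lay 33 (82.5%), against 69.6% of all genes. Of the brighter genes, 13.1% were higher, 12.6% lower and 74.2% within 2-fold. The median of the 40 was again -0.20, beside 0.15 over all genes and -0.04 over the brighter ones. Below 0 lay 25 (62.5%), as did 44.4% of all genes and 51.5% of the brighter ones. Both comparisons use the same PBS array, so the likeness of their values is not independent evidence. Under spike-in scaling the number of the 40 genes at least 2-fold lower was 23 with MRL/MpJ urine and 25 for the other. That scaling shifts every gene of the array alike, by -0.90 and -0.99. The share of all genes 2-fold lower on it was not counted, so these numbers do not set the 40 genes apart.

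**Figure D2:**
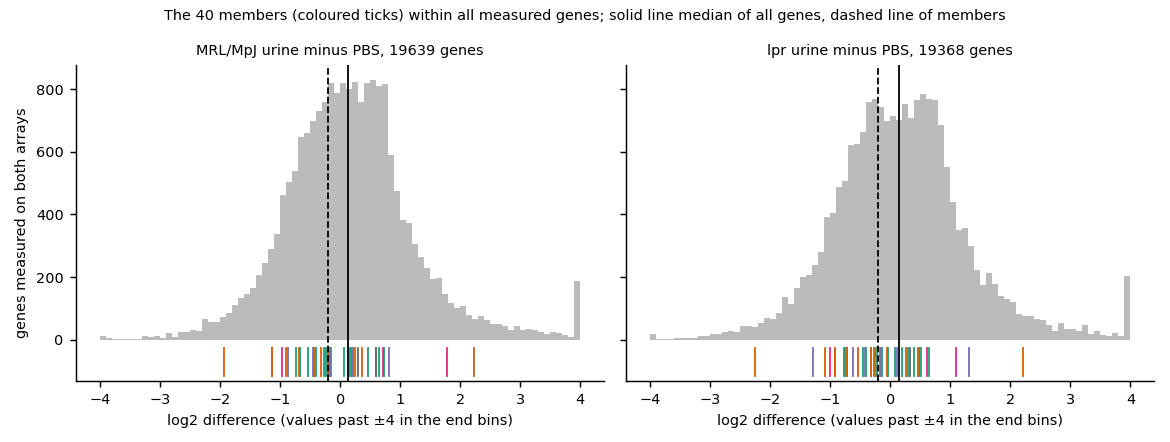
Histograms of the log2 difference from PBS over all genes measured on both arrays (grey bars, number of genes; 19639 genes left, 19368 right), with the 40 genes as coloured ticks under the axis. The dashed line, the median of the 40, lies at -0.20 in both panels, left of the solid line, the median of all genes at 0.13 and 0.15. The median of the array's brighter genes, not drawn, was -0.04 in both comparisons.

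**Figure D3:**
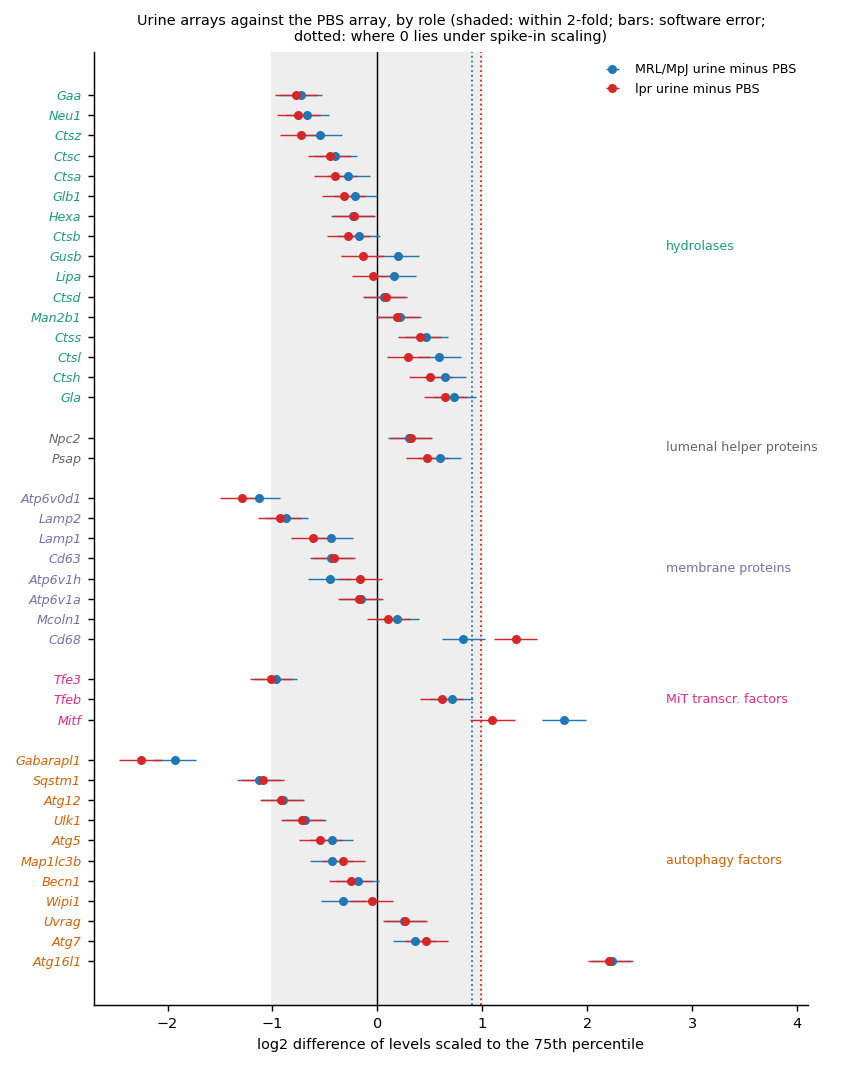
Log2 difference of each urine array from the PBS array for the 40 genes, grouped by role, with bars for the software's error of 1 spot per array (0.20 for nearly all genes) and shading within 2-fold; dotted lines mark where 0 would lie under spike-in scaling. All 16 hydrolases lie inside the shading, and Gabarapl1 and Atg16l1 lie furthest out.

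The MiT transcription factors, which drive the lysosomal gene programme, went both ways. Tfe3, read by a single probe (chromosome X, 7352259 to 7352318, mm9), gave 1468 intensity units with PBS, 413 with the MRL/MpJ urine and 350 with the lpr urine. It differed by -0.97 and -1.01 from PBS, just inside and just outside 2-fold, and was 2-fold lower with lpr urine under all 5 other settings of scaling, background and probe that were tried. With 1 measured probe the probe settings repeat the main value, and median and spike-in scaling could only move it lower. Of the settings, only normexp could have ended the call. Tfeb, the best studied activator of CLEAR genes, gave 174, 157 and 128 units and differed by 0.71 and 0.61, values that turn to -0.20 and -0.38 on the spike-in scale. Its 4 probes ran from 0.24 to 1.64 with MRL/MpJ urine, so they shared a direction on the 75th percentile scale but not a size. Mitf, better known from pigment cells, mast cells and osteoclasts, was dim, with 27.2, 51.2 and 27.9 units, so 2 of its 3 values lie below a log2 signal of 5, where repeated spots spread more widely. Its chosen probe was higher by 1.77 with the MRL/MpJ urine and by 1.09 with the lpr urine. On the spike-in scale these are 0.87 and 0.10, within 2-fold. The gene's 4 probes, however, spanned -0.81 to 1.77 with MRL/MpJ urine, and the probe 2728 bases downstream differed by -0.23 and -0.24. The 3 genes thus had no common direction at the RNA level.

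None of the 16 hydrolases was 2-fold away from PBS with either urine on its chosen probe. Their median difference was -0.06 with MRL/MpJ urine, with 8 above and 8 below 0, and -0.18 with lpr urine. On the spike-in scale these medians are -0.96 and -1.17. The highest was Gla, the alpha-galactosidase that is deficient in Fabry disease, at 37236 intensity units with PBS, 34009 with the MRL/MpJ urine and 28012 with the lpr urine. It differed by 0.73 and 0.65 (chromosome X, 131122895 to 131122954, mm9). RefSeq places Rpl36a, a ribosomal protein gene, and Hnrnph2 within 1000 bases of Gla, and whether the probe reads RNA from either was not tested.

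The cathepsins, most of them cysteine proteases, differed in direction on their chosen probes. Ctsh, an aminopeptidase, gave 2772, 2383 and 1889 units and was higher by 0.64 and 0.50. Ctsl, the endopeptidase cathepsin L, gave 179, 148 and 105 units (mean of 10 spots each) and was higher by 0.59 and 0.29. Ctss, the protease that trims the invariant chain of MHC class II in antigen-presenting cells, gave 8336, 6336 and 5293 units and was higher by 0.47 and 0.40. All of these values turn negative on the spike-in scale. On the lower side, Ctsz, a carboxypeptidase, gave 3387, 1277 and 984 units and differed by -0.55 and -0.73. Ctsc, which activates granule serine proteases, differed by -0.40 and -0.46, but its other probes were higher, by 0.50 and 0.32 and by 0.32 and 0.33. Ctsb differed by -0.18 and -0.28. Ctsa, a serine carboxypeptidase that protects the sialidase and beta-galactosidase, differed by -0.28 and -0.40, and by 0.53 and 0.35 on its other probe. The aspartic protease gene Ctsd stayed nearest to 0, at 0.06 and 0.08.

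Among glycan- and lipid-degrading enzymes, Gaa, the acid alpha-glucosidase that breaks down lysosomal glycogen, was the lowest hydrolase, with 1391, 461 and 390 units and differences of -0.73 and -0.78, although its 3 probes ran from -0.73 to 0.30 with MRL/MpJ urine. Neu1, the lysosomal sialidase, gave 2335, 809 and 666 units and differed by -0.67 and -0.75. Both values exceed the software's error of 0.20, but neither reaches 2-fold. Hexa, the alpha subunit of beta-hexosaminidase, differed by -0.24 and -0.22, and Glb1, the acid beta-galactosidase, by -0.21 and -0.32. Gusb, the beta-glucuronidase, differed by 0.19 and -0.14, Lipa, the acid lipase, by 0.16 and -0.04, and Man2b1, an alpha-mannosidase, by 0.21 and 0.19, all near the software's error on these chosen probes. The other Gusb probe differed by -0.58 and -1.12, which is past 2-fold lower with lpr urine. The lumenal helpers were both higher on the 75th percentile scale. Psap, the precursor of the saposins that present lipids to hydrolases, gave 2354, 1955 and 1569 units and was higher by 0.59 and 0.47, and Npc2, which carries cholesterol out of the lumen, gave 3654, 2478 and 2191 units and was higher by 0.30 and 0.32. On the spike-in scale their median is -0.46 and -0.59.

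Of the 8 membrane proteins, 6 lay below 0 with each urine, with medians of -0.44 and -0.29. Atp6v0d1, a subunit that links the rotor of the V-ATPase to its membrane ring, was the lowest. It gave 1364 intensity units with PBS, 342 with the MRL/MpJ urine and 268 with the lpr urine (chromosome 8, 108048778 to 108048837, mm9). That is 2.19-fold and 2.45-fold lower (-1.13 and -1.29), and it was 2-fold lower under all 5 settings tried. The gene has 1 probe, so the probe settings repeat this value, and median and spike-in scaling could only move it lower. Of the settings, only normexp could have ended the call. Atp6v1a, the catalytic subunit, gave 426, 210 and 182 units and differed by -0.16 and -0.17, Atp6v1h, a regulatory subunit, by -0.45 and -0.16, and of 16 further V-ATPase subunits 0 were 2-fold away from PBS with either urine on their chosen probes (medians -0.38 and -0.37). Other probes of 4 of these genes did pass 2-fold. They were at -1.91 and -2.31 for Atp6v0e, at -1.29 and -1.49 for Atp6v0a2, at -1.44 with MRL/MpJ urine for Atp6v0b and at 1.01 with lpr urine for Tcirg1. Lamp2, a form of which is the receptor of chaperone-mediated autophagy, gave 624, 188 and 157 units and differed by -0.87 and -0.93. A probe for another of its RefSeq transcripts, 4731 bases upstream, differed by -0.03 and 0.12, and an Ensembl transcript probe 33441 bases upstream by 1.10 and 1.11. Lamp1 gave 6147, 2491 and 1925 units and differed by -0.44 and -0.62. The tetraspanin gene Cd63 gave 640, 259 and 230 units and differed by -0.44 and -0.42. Mcoln1, the calcium channel mucolipin, gave 1714, 1073 and 885 units and lay near 0.

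Cd68, the LAMP-family glycoprotein of macrophages, was the highest of the membrane proteins. It gave 788 intensity units with PBS, 763 with the MRL/MpJ urine and 943 with the lpr urine, so lpr urine gave the brightest of its 3 arrays even before scaling. It was higher by 0.82 with MRL/MpJ urine (-0.09 on the spike-in scale) and by 1.32 with lpr urine (0.33 on the spike-in scale). Its 3 probes were all higher on the 75th percentile scale, by 0.82, 1.24 and 2.64 with MRL/MpJ urine and by 1.32, 1.63 and 2.79 with lpr urine. The probe with the largest rise was dim, with 23.0 units with PBS. RefSeq places Eif4a1 within 1000 bases of Cd68, and whether a probe reads RNA from it was not tested. Other macrophage markers also had a median above PBS on the 75th percentile scale, with the lowest at -2.15 and -1.70. Of 15 such markers 13 were measured, with 6 past 2-fold higher and 1 lower with MRL/MpJ urine (median 0.83, or -0.08 on the spike-in scale) and 5 higher and 1 lower with lpr urine (median 0.57, or -0.42). Their summed scaled signal, relative to the 75th percentile, was 77.4 with PBS, 171 with the MRL/MpJ urine and 142 with the lpr urine, and the high-affinity Fc receptor gene Fcgr1 was not above background on any array. Most of that sum came from Itgam and Lyz2, and Itgam was higher by 2.25 and 1.96 on its chosen probe but by 0.22 and 0.76 on its lowest. Such a rise was not particular to macrophages. Marker medians were 0.95 and 0.92 for B cells, 1.18 and 1.10 for plasma cells, 0.75 and 0.86 for neutrophils and 0.55 and 0.72 for erythroid cells. Those of dendritic, T and NK cells lay between 0.02 and 0.18 on the same scale. The part of cell type markers in the Cd68 difference was not tested.

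The differences of the autophagy factors ran from -1.93 to 2.24 with MRL/MpJ urine and from -2.25 to 2.21 with lpr urine, and 8 of 11 lay below 0 with each (medians -0.43 and -0.32). Gabarapl1, an LC3-like protein that is conjugated to the autophagosome membrane, was the lowest of all 40 genes. It gave 1105 intensity units with PBS, 160 with the MRL/MpJ urine and 111 with the lpr urine (chromosome 6, 129492254 to 129492313, mm9). That is 3.81-fold and 4.77-fold lower. Its other probe, 903 bases upstream, differed by -1.60 and -2.18, and the gene was 2-fold lower under all 5 settings tried. Of these, median and spike-in scaling could only move it lower. Its relative Map1lc3b, which encodes LC3B, gave 4067, 1656 and 1561 units and differed by -0.43 and -0.32.

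Sqstm1 encodes p62, a receptor that carries ubiquitinated cargo into autophagosomes and is itself degraded there. It gave 4806 units with PBS, 1205 with the MRL/MpJ urine and 1084 with the lpr urine, which is 2.19-fold and 2.13-fold lower on the chosen probe (chromosome 11, 50013670 to 50013729, mm9). Other Sqstm1 probes differed from it, as described further on. Atg12, the ubiquitin-like protein that is joined to ATG5, gave 1346, 396 and 342 units and differed by -0.90 and -0.92, close to 2-fold. Ulk1, the kinase that starts autophagy under mTORC1 control, gave 1312, 446 and 384 units and differed by -0.69 and -0.72. Atg5 differed by -0.44 and -0.54, Becn1, a subunit of the lipid kinase complex, by -0.19 and -0.25, and Wipi1, a reader of its lipid product, by -0.32 and -0.06. On the higher side Atg7, the activating enzyme of both conjugation systems, gave 426, 300 and 283 units and was higher by 0.35 and 0.46, although its other probe differed by -0.65 and -0.68. Uvrag, a partner of Becn1, gave 2106, 1380 and 1218 units and was higher by 0.25 and 0.27, with its other probes between 0.52 and 1.17. On their chosen probes Atg7 and Uvrag turn negative on the spike-in scale. The Uvrag probe 17409 bases upstream stays above PBS there, at 0.16 and 0.18.

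Atg16l1, the protein that brings the ATG12-ATG5 conjugate to the membrane, was the highest of all 40 genes on the chosen probe (chromosome 1, 89685064 to 89685123, mm9). It gave 2236 units with PBS, 5791 with the MRL/MpJ urine and 4968 with the lpr urine, 4.71-fold and 4.62-fold higher, and stayed above PBS on the spike-in scale (1.33 and 1.22). The file's annotation of this probe's cDNA, BC033362, speaks of a retained intron. A probe that overlaps it, offset by 13 bases, was higher by 3.18 and 3.05. The probe for the RefSeq mRNA NM_029846, 3832 bases downstream, gave 1389, 529 and 427 units and differed by -0.53 and -0.64. The gene was thus 2-fold higher on the cDNA probe and lower than PBS on the mRNA probe. In RefSeq, Gm25395 and Scarna6 overlap Atg16l1, and whether a probe reads RNA from either was not tested.

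Several of the genes had probes that disagreed. Of the 20 genes with several measured probes, 10 (50%) had probes that differed from each other by at least 2-fold in the MRL/MpJ urine comparison, against 31.5% of 6530 genes of the array. In the lpr urine comparison it was 9 (45.0%), against 33.2%. Probes at least 4-fold apart occurred in 5 genes (25.0%) in each comparison, against 10.3% and 11.4% of all genes. The gap between a gene's lowest and highest probe can only widen as probes are added. The number of probes per gene was not matched between the 20 genes and all genes, so the shares are not strictly comparable. Sqstm1 was the only one of these 20 genes with probes past 2-fold in opposite directions (5.0% in each comparison, against 2.21% and 2.51% of all genes). Its chosen probe differed by -1.13 and -1.09 and a second RefSeq probe, 2315 bases upstream, by -0.30 and -0.13. Another probe, for an Ensembl transcript 802 bases downstream, gave 43.0 units with PBS, 252 with the MRL/MpJ urine and 166 with the lpr urine and was higher by 3.41 and 3.00. The Map1lc3b probe furthest upstream, 4137 bases from the chosen one, gave 244, 677 and 447 units and was higher by 2.34 and 1.93, against -0.23 and -0.17 on the middle probe.

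The second Ctsl probe, 1853 bases downstream of the chosen one, read 1.14 units with PBS, a signal not called above background, then 53.8 with the MRL/MpJ urine and 32.3 with the lpr urine. Against the lowest signal called well above background on the PBS array it was at least 21.9-fold higher for MRL/MpJ urine and at least 15.1-fold for the other urine. In Ctsh it was the other way round. Its 3 RefSeq probes were higher by 0.60 to 0.65 with MRL/MpJ urine, and an Ensembl transcript probe 20789 bases upstream differed by -1.53 and -1.55. What RNA these probes read was not tested, and their places in exons, introns or untranslated regions were not analysed here.

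The last 30 bases of some probes are printed for Sqstm1, Map1lc3b, Ctsl and Atg16l1, the genes whose probes lay furthest apart. Capitals mark AATAAA, the usual signal for polyadenylation, where it occurs. It lies in the chosen Sqstm1 probe, and the probe that was higher lies 802 bases beyond it.
Sqstm1, chosen probe, NM_011018: tggtttgtaagtaacctgtAATAAAatgcc
Sqstm1, downstream probe: gaccacatttctcatataaagaagacatcc
Map1lc3b, chosen probe: tccatgcaagtgcactcagcttggaaactc
Map1lc3b, upstream probe: ccctgaggtggtaggcaggtgtacaatgga
Ctsl, chosen probe: cttgaatcattgaggatccaagtcatgatt
Ctsl, downstream probe: actgaacacacagcatctcttagattattt
Atg16l1, chosen probe, BC033362: gggcgtagagacagtatccaaattaaaaaa
Atg16l1, probe for NM_029846: tttatttatttaattatgtgtcccaacaga

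**Figure D4:**
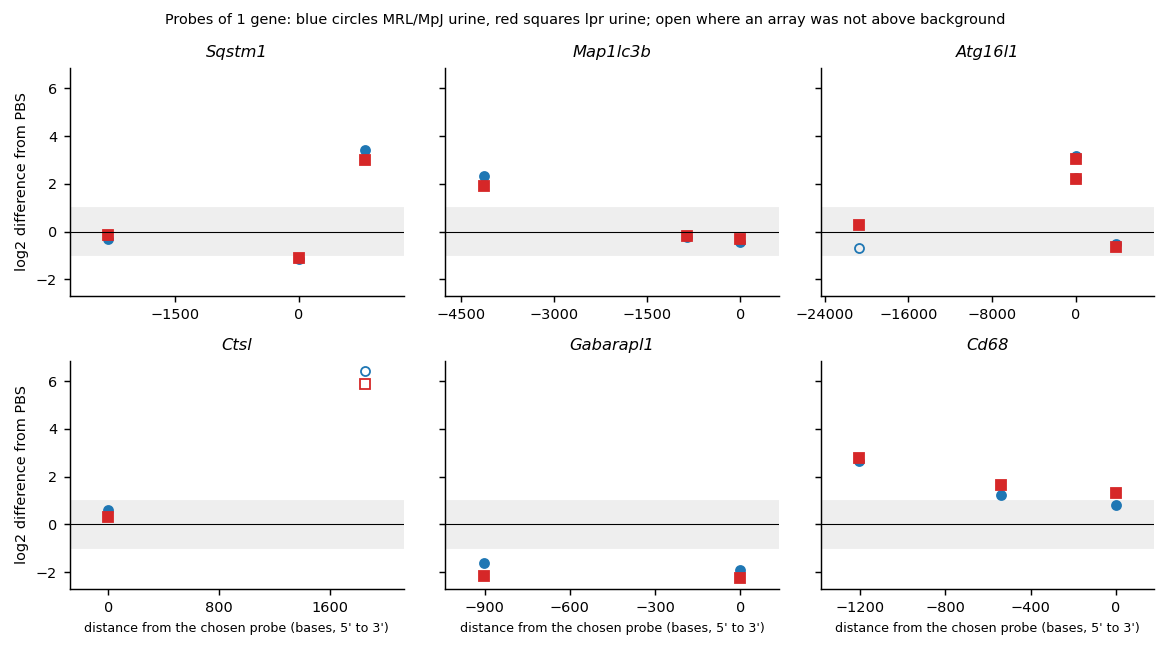
Log2 difference from PBS of every probe of 6 genes (blue circles MRL/MpJ urine, red squares lpr urine; open where an array of the comparison was not above background) against the distance of the probe from the chosen one in bases along the gene; shading marks 2-fold. Sqstm1 and Atg16l1 have probes on both sides of 0, and both Gabarapl1 probes and all 3 Cd68 probes lie on the same side.

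None of the 40 was 2-fold higher or lower with lpr urine than with MRL/MpJ urine, where 0.34% of all 20012 measured genes were higher and 0.06% were lower and 99.6% lay within 2-fold. The median difference was -0.06, and 29 of the 40 lay below 0, as did 48.6% of all genes and 52.3% of the brighter ones. Among hydrolases it was 14 of 16, with a median of -0.09, from -0.33 for Gusb and -0.30 for Ctsl to 0.02 for Ctsd. Most of these values are smaller than the software's error of 0.20. The largest differences on chosen probes were those of Mitf (-0.68), Cd68 (0.50) and Gusb (-0.33). The other Mitf probes measured on all 3 arrays differed by -0.01 and 0.27. Gusb gave 413 units with PBS, 260 with the MRL/MpJ urine and 180 with the lpr urine. Gabarapl1 differed by -0.32 and Atp6v1h by 0.29. Cd68, Atp6v1h and Atg7 lay above 0 and 26 genes below 0 under all 5 settings tried. Median and spike-in scaling move each of these differences lower, so they could not have raised a gene that lay below 0. How many of all genes kept their side under these settings was not counted.

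**Figure D5:**
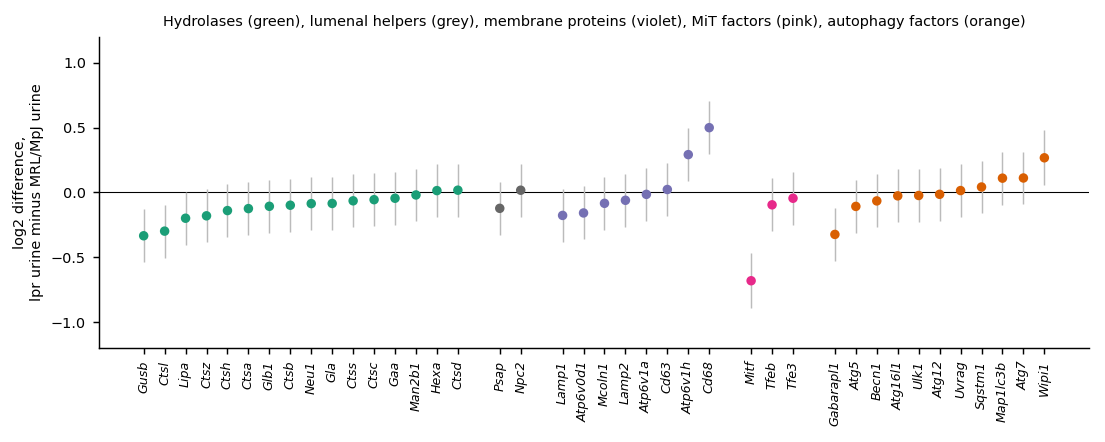
Log2 difference of the lpr urine array from the MRL/MpJ urine array for the 40 genes, sorted within roles, with grey bars for the software's error. All points lie between -0.68 (Mitf) and 0.50 (Cd68), and 14 of 16 hydrolases lie below 0.

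Further genes of the pathway are given by list, and every count below is to be read beside the shares over all measured genes. Those were 16.9% at least 2-fold higher and 11.1% lower with MRL/MpJ urine, and 18.5% higher and 12.0% lower with lpr urine. Of 34 other measured hydrolases, 6 passed 2-fold higher and 1 lower with MRL/MpJ urine, and 6 higher and 2 lower with lpr urine (medians -0.03 and -0.14). Idua, which degrades heparan and dermatan sulfate, gave 1853, 5132 and 3801 units and was higher by 2.33 and 2.09. Ctsw, a cathepsin of cytotoxic lymphocytes, was higher by 2.02 and 2.14, and by 2.02 and 2.16 on its other probe. Manba, a beta-mannosidase, was higher by 1.95 and 2.52, and by 0.50 and 0.65 on its other probe. Smpd1, the acid sphingomyelinase, differed by -1.32 and -1.28, and by 0.14 and -0.07 on its other probe. Ctso was the second on the lower side with lpr urine, at -1.05.

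Of 30 measured membrane proteins outside the 40, 5 were higher and 8 lower with MRL/MpJ urine and 4 higher and 8 lower with lpr urine (medians -0.52 and -0.57). Slc15a3, a lysosomal transporter of histidine and bacterial peptides, gave 655 units with PBS, 39.5 with the MRL/MpJ urine and 27.2 with the lpr urine and differed by -3.19 and -3.53. Abcb9, a peptide transporter, gave 2635, 258 and 205 units and differed by -2.49 and -2.63, and Laptm4a differed by -1.26 and -1.19 and the chloride transporter gene Clcn7 by -1.07 and -1.25. Higher were the calcium channel gene Mcoln3 by 2.23 and 1.99, from 22.3 units with PBS, and Abca2 by 1.92 and 1.91. Slc17a5, the sialic acid exporter, was higher by 2.32 and 2.07 on its brightest probe and differed by -1.23 and -0.96 on the other.

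Among 38 other autophagy factors, 5 were higher and 5 lower with each urine (medians -0.33 and -0.40). Atg9a, the membrane protein of the vesicles that seed autophagosomes, gave 314, 1360 and 1075 units and was higher by 2.98 and 2.83. Atg10, the E2-like enzyme of ATG12, was higher by 2.38 and 2.73 on its chosen probe and by 1.62 and 1.60 on the other. The chosen Atg10 probe was dim with PBS, at 23.7 units, which is below a log2 signal of 5. Wipi2 was higher by 1.76 and 1.48 on its brightest probe and differed by -0.52 and -0.45 on its lowest. Vmp1, a membrane protein needed to form the autophagosome, gave 2568, 380 and 364 units and differed by -1.89 and -1.76, and Atg13, a partner of ULK1, by -1.21 and -1.50. Wdr45 differed by -1.27 and -1.40, with its probes between -1.44 and 0.55 with MRL/MpJ urine. Of the 14 autophagy receptors besides Sqstm1, 1 was lower with the MRL/MpJ urine and 2 with the lpr urine, where Nbr1 (-1.21) joined Bnip3 (-3.01), and 0 were higher.

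In mTORC1 and lysosomal nutrient sensing, the pathway that restrains TFEB and ULK1 when amino acids are plentiful, 2 of 27 were higher and 6 lower with MRL/MpJ urine, and 2 of 28 and 6 with lpr urine (medians -0.51 and -0.61). Lower were Flcn, a partner of the Rag GTPases that is needed to hold TFEB in the cytoplasm, at -1.58 and -1.63 with both probes past 2-fold, and the Rag genes Rraga at -1.53 and -1.43 and Rragd at -1.38 and -1.37. Rragd also had a probe at -0.35 and -0.07. Rragb, measured with PBS and lpr urine only, gave 44.2 and 5.83 units there and differed by -1.86. Higher were Lamtor3, part of the Ragulator anchor, by 1.14 and 1.40 on its chosen probe and 1.23 and 1.60 on the other, and Rheb, the GTPase that activates mTORC1, by 1.24 and 1.22 on its chosen probe and -0.39 and -0.35 on the other. In mannose 6-phosphate sorting 1 of 11 was past 2-fold, Gga2, higher by 2.79 and 3.02 on its brightest probe and by 0.43 and 0.48 on its lowest. Of the cathepsin inhibitors, 2 were higher and 2 lower with each urine, of 8 and 9 measured. Cstb, the cytosolic stefin B, differed by -1.18 and -1.19 and Serpinb6b by -1.59 and -1.53, while Stfa3 was higher by 1.40 and 1.21 and Cst7, cystatin F of cytotoxic and myeloid cells, by 1.03 and 1.21. On the spike-in scale Stfa3, Cst7, Rheb, Lamtor3 and Wipi2 fall within 2-fold, as does Abca2 with lpr urine. Between the 2 urines 0 genes of any of these lists were 2-fold apart, where 99.6% of all measured genes lay within 2-fold.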

How the data were processed

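The 3 arrays of cultured spleen cells, 1 per condition, were all on 1 slide and from 1 scan. The deposited values are, per the file headers, intensity of 1-colour (Cy3) Agilent arrays of design 074809, read with Feature Extraction 12.0.3.1, the version the submitters' processing notes also name. The authors' software had subtracted background and detrended the processed signal within each array, with no scaling between arrays. Probe positions are on mm9, per the file headers. Of 62976 spots 59305 were not controls. Spots of 1 probe were averaged (10 for repeated probes), and flagged spots were left out.

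Levels were log2 processed signals after subtraction of the array's own 75th percentile, and 2-fold was the rule of size. With 1 array per condition no test was possible, and the number of arrays limits the precision. The members and all lists were chosen with earlier results of these data known, and support nothing by themselves. Values on every array were given for the 3 highest and 3 lowest members of each role, for members past 2-fold, and for the 3 largest differences between the urines. Of the pathway lists, up to 3 of the largest differences each way were named. Other probes shown were chosen after their values were seen. Alternatives were scaling by the median or by 8 spike-ins, normexp correction (limma 3.58.1, R 4.3.3, offset 50), the mean of a gene's probes, no filter on dim probes, 1.5-fold and, added after seeing the data, the brightest RefSeq mRNA probe. The computation of levels and differences was tested on simulated data (Python 3.11.15, pandas 2.3.3). Promoter sequences are RefSeq's on GRCm38.p6, with 34 of 40 members matched. They were never set against mm9 positions.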

Additional observations from a re-analysis of the deposited data

How the results depend on the processing

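With 1 array per condition, no replicate could be left out. No paired analysis was possible because each condition has a single array. For MRL/MpJ urine against PBS, members at least 2-fold lower numbered 3, against 9 with scaling by the median, 23 with scaling by the spike-ins, 5 with normexp and 9 at 1.5-fold. Members at least 2-fold higher numbered 2, against 1 with spike-in scaling, with normexp and with the brightest RefSeq mRNA probe, and 8 at 1.5-fold. The median of -0.20 was -0.57 with median scaling, -1.105 with spike-in scaling, -0.29 with normexp and -0.027 with the mean of probes. For lpr urine, the 4 lower members became 11 with median scaling, 25 with spike-in scaling, 7 with normexp and 11 at 1.5-fold, and the 3 higher became 1 with either scaling and with normexp, and 5 at 1.5-fold. The median of -0.20 was -0.59, -1.19, -0.37 and -0.034 in the same order. Between the urines, 1 member was lower at 1.5-fold, and the median of -0.06 was -0.15 with spike-in scaling. Leaving out the filter on dim probes gave the same counts and medians. The shares of all genes past 2-fold or 1.5-fold under the other settings were not counted. Median and spike-in scaling shift every gene of an array alike, and the 1.5-fold rule is looser for every gene. The changed counts therefore do not set the members apart from other genes. Sqstm1 was 0.66 and 0.59 with the mean of its probes, and Atg16l1 was -0.53 and -0.64 with its RefSeq mRNA probe. Mitf stayed above PBS under these settings, but 1 of its probes differed by -0.23 and -0.24 and another by -0.81 with MRL/MpJ urine. Over the 5 settings of scaling, background and probe, 22 members changed sign against PBS for MRL/MpJ urine and 19 for the other. Sign changes were not counted over all genes. The members 2-fold lower in all 5 settings were Atp6v0d1 and Gabarapl1, and with lpr urine also Tfe3. Median and spike-in scaling only move differences from PBS lower, and Atp6v0d1 and Tfe3 have 1 measured probe each. For Atp6v0d1 and Tfe3 only normexp could therefore have ended the call. All 40 members were well above background on all 3 arrays.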
